A study of Hordeum vulgare with 10 samples.

Results

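miR168 is a conserved plant miRNA family, and 10 of its isomiRs, sequences of the same arm or precursor that differ in their ends, were listed among the 61 known and 81 predicted miRNAs counted in dry barley seeds. All entries named miR168.1 to miR168.10 were taken as members by name, with no cut on a measured value. Earlier results of these data were known when they were chosen. Small RNA was sequenced from the embryo and scutellum of seeds of cv. Damazy in 3 groups of 3 libraries each. Seeds of low viability (Lv, germination 2%) and of high viability (Hv, germination about 87%) were harvested in 1972 and stored until 2018, and regenerated seeds (Rc) were grown in the field from a sample of the highly viable seeds and served as the non-stored control. By the study's methods, Lv and Hv seeds were of the same lot kept in separate flasks, and each replicate was a pool of seeds, so that storage or viability cannot be told apart from the flask or the harvest. The p-values between single groups therefore rest on the spread between pools of the same flask or harvest. For stored seeds (Lv and Hv together) over Rc, that spread also holds the difference between the flasks. Tests within libraries used the spread over all 9 libraries, which come from only 3 groups of seeds.

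In Arabidopsis thaliana, miR168 guides the cutting of the mRNA of AGO1, the Argonaute protein that carries most plant miRNAs, miR168 among them, so that the miRNA acts on the machinery it works with. A Dicer-like enzyme cuts plant miRNAs from a hairpin as a duplex of its 5p and 3p arms, and the methyltransferase HEN1 then protects the 3′ ends of both strands. The first bases of a miRNA are called its seed here. By the study's account, a plant miRNA must match its target almost fully, so that pairing is not limited to the seed. Loss of a base at the 5′ end shifts the seed, and loss at the 3′ end leaves it in place.

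The sequences that carried the counts are given here because the results turn on where their ends lie. They were found for 8 of the 10 members, 5 of the 5p arm and 3 of the 3p arm. miR168.1 and miR168.6 are only named. Bases 2 to 8, the seed, are in capitals.
miR168.10 (5p, 21 nt): uCGCUUGGugcagaucgggac
miR168.9 (5p, 20 nt): uCGCUUGGugcagaucggga
miR168.8 (5p, 19 nt): uCGCUUGGugcagaucggg
miR168.5 (5p, 20 nt): cGCUUGGUgcagaucgggac
miR168.7 (5p, 19 nt): gCUUGGUGcagaucgggac
miR168.3 (3p, 21 nt): cCCGCCUUgcaccaagugaau
miR168.2 (3p, 20 nt): cCCGCCUUgcaccaagugaa
miR168.4 (3p, 20 nt): cCGCCUUGcaccaagugaau
miR168.9 is miR168.10 without its last base and miR168.8 is without its last 2, so that these 3 share the seed CGCUUGG and a first U. miR168.5 and miR168.7 lack 1 and 2 bases at the 5′ end, and each has a seed of its own. In the 3p arm, miR168.2 lacks the last base of miR168.3 and keeps its seed, while miR168.4 lacks the first base.

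All 8 sequences lie in a single hairpin of 104 bases, which the study listed for hvu-new43, a predicted miRNA whose sequence is that of miR168.10. It is given to show how the arms face each other, with the 5p and the 3p arm in capitals, at chr6H:34582572-34582675 on the plus strand of the build Hv_IBSC_PGSB_v2.
Hairpin of hvu-new43: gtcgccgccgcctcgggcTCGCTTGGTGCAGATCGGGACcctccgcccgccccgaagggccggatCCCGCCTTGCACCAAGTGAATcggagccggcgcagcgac
The 5p arm takes bases 19 to 39 and the 3p arm bases 66 to 86, with 26 bases between them. The mature sequence was listed at 34582591 to 34582611, a start 1 base off from the one that the listed hairpin start implies. In the structure of lowest free energy given by RNAfold, -65.3 kcal/mol, 17 of the 21 bases of the 5p arm paired with the 3p arm. Of the 81 predicted miRNAs, hvu-new43 was the only 1 whose sequence is in this hairpin. The gene annotation around it was not analysed here, and the counts are of sequences, so that reads of the same sequence from another locus would be included.

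**Figure D1:**
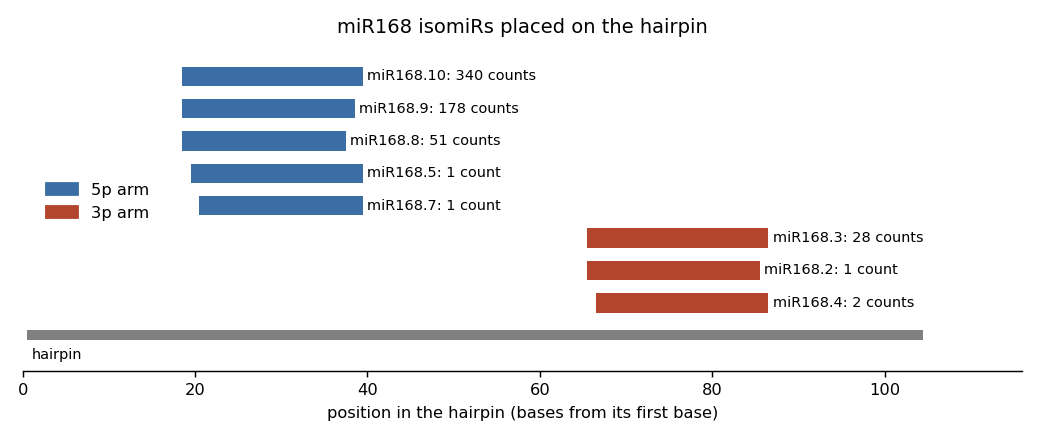
Horizontal bars show the 8 miR168 isomiRs with a sequence at their position in the 104-base hairpin, with the count of each summed over the 9 libraries beside it (5p arm in blue, 3p arm in red, whole hairpin in grey). The 3 forms that start at base 19 hold 340, 178 and 51 counts, and miR168.3 of the 3p arm holds 28.

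The family held 605 counts over the 9 libraries, 2.87% of the counts of known miRNAs, and had rank 4 of 13 families by its total. The whole table had between 3966 and 19542 counts per library. The family had between 29 and 70 counts in the Lv libraries, between 23 and 89 in the Hv libraries and at least 46 in the Rc libraries, so that most members rest on few counts. Levels are given as RPM, the counts of a miRNA scaled to the mapped reads of its library. The study reported far higher RPM for this family in all groups, so its levels and those given here cannot be compared directly. The reason for the gap was not tested. The counts of known miRNAs were 1.17 to 2.53 times the reads that the study matched to miRNAs, by a factor that differed between libraries, and RPM levels carry that factor. It was 1.30, 1.73 and 1.72 in Lv replicates 1, 2 and 3. In Hv replicates 1, 2 and 3 it was 1.17, 1.94 and 2.25, and in Rc replicates 1, 2 and 3 it was 2.10, 1.58 and 2.53. Its part in the results was not tested. Counts of 3, the limit that a count of 0 allows, correspond to 6.85 to 17.3 RPM in these libraries, by counting error only.

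Of the 605 counts, 571 belonged to the 5p arm, 31 to the 3p arm and 3 to the members without a sequence. The 5p arm thus had 18.4 counts for each count of the 3p arm. Within the 5p arm, shortening was taken relative to miR168.10, the longest form with a sequence. The forms shortened at the 3′ end, miR168.9 and miR168.8, held 229 counts, and those shortened at the 5′ end, miR168.5 and miR168.7, held 2. Nearly all 5p counts therefore had the seed CGCUUGG. The study stated that its canonical form of miR168, which is longer, was not found in these samples.

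The order of the members was miR168.10 (340 counts, 56.2% of the family), miR168.9 (178, 29.4%), miR168.8 (51, 8.43%) and miR168.3 (28, 4.63%). These 4 were counted in all 9 libraries. The other 6 members together held 8 counts, between 1 and 2 each. miR168.1 had 1 count in Lv replicate 3 and 1 in Hv replicate 1, and miR168.4 had 1 count in Lv replicate 3 and 1 in Rc replicate 1. miR168.2 was counted only in Lv replicate 3, miR168.5 only in Lv replicate 2, miR168.6 only in Hv replicate 2 and miR168.7 only in Rc replicate 1, each with 1 count. At this depth a single count does not place a member in a group, and these 6 were left out of the main tests by the minimum of 10 counts over the 9 libraries. They entered only the alternatives without that minimum, and were not called there.

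Neighbours in this order were compared within libraries by the log2 ratio of their counts, each raised by 0.5. miR168.10 exceeded miR168.9 in 9 of 9 libraries, by 1.02 ± 0.69 on the log2 scale (SD, n = 9; exact sign-flip permutation test, two-sided, adjusted p = 0.00586). miR168.9 exceeded miR168.8 in 9 of 9 libraries, by 1.68 ± 0.30 (exact permutation test, adjusted p = 0.00586). miR168.8 was above miR168.3 in 7 libraries and equal to it in 2, with a mean of 0.93 ± 0.86 (exact permutation test, adjusted p = 0.0156). The smallest p that 9 libraries allow is 0.00391 before adjustment over the 3 pairs. The order itself was known from the same counts, so these tests say only that the neighbours differed beyond the spread between libraries.

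miR168.10, the 21-nt form, had 80.7, 86.3 and 107 RPM in Lv replicates 1, 2 and 3, 86.0, 161 and 112 RPM in Hv replicates 1, 2 and 3, and 200.1, 83.1 and 176 RPM in Rc replicates 1, 2 and 3. The Rc libraries held both the highest values and 1 of the lowest, and the groups overlapped. The mean was 91.5 ± 14.1 RPM in Lv, 119 ± 37.9 RPM in Hv and 153 ± 61.7 RPM in Rc (SD, n = 3 each). From the counts, the log2 fold change of stored seeds (Lv and Hv, 6 libraries) over Rc was -0.19 (SE 0.32, 95% interval -0.90 to 0.52; edgeR's quasi-likelihood test, Benjamini-Hochberg adjusted p = 0.971).

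miR168.9, the 20-nt form, had 63.4, 27.7 and 38.4 RPM in Lv replicates 1, 2 and 3, 15.2, 76.8 and 69.8 RPM in Hv replicates 1, 2 and 3, and 117, 79.0 and 93.6 RPM in Rc replicates 1, 2 and 3. All 6 stored libraries were below all 3 Rc libraries on this scale, the nearest being 76.8 RPM in Hv replicate 2 and 79.0 RPM in Rc replicate 2. RPM carries the factor given above, highest in Rc replicate 3 and lowest in Hv replicate 1. Of the 99 miRNAs with at least 10 counts, 6.06% were placed in the same way in RPM. A factor shared by all counts of a library drops out on the scale of the table's own totals after TMM scaling (TMM-normalized CPM). On that scale, 4 of the 6 stored libraries were below all Rc libraries for miR168.9 and the groups overlapped. All 6 were below for 3.03% of the 99 miRNAs. The log2 fold change of stored seeds over Rc was -0.69 (SE 0.47, 95% interval -1.75 to 0.37; edgeR, adjusted p = 0.690).

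miR168.8, the 19-nt form, had 3, 2 and 6 counts in Lv replicates 1, 2 and 3, 1, 6 and 10 counts in Hv replicates 1, 2 and 3, and 6, 5 and 12 counts in Rc replicates 1, 2 and 3. Its level was 12.9 ± 5.95 RPM in Lv, 16.4 ± 9.91 RPM in Hv and 24.4 ± 3.35 RPM in Rc (SD, n = 3 each), and 4 of the 6 stored libraries were below all Rc libraries. The log2 fold change of stored seeds over Rc was -0.41 (SE 0.66, 95% interval -1.89 to 1.07; edgeR, adjusted p = 0.971).

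miR168.3, the main form of the 3p arm, had 1, 1 and 4 counts in Lv replicates 1, 2 and 3, 1, 2 and 1 counts in Hv replicates 1, 2 and 3, and 4, 2 and 12 counts in Rc replicates 1, 2 and 3. Its level was 6.36 ± 3.61 RPM in Lv, 4.79 ± 2.34 RPM in Hv and 17.5 ± 9.56 RPM in Rc (SD, n = 3 each). In RPM, 5 of the 6 stored libraries were below all Rc libraries, and Lv replicate 3 at 10.2 RPM was above Rc replicate 2 at 8.31 RPM. The log2 fold change of stored seeds over Rc was -1.27 (SE 0.78, 95% interval -3.01 to 0.48; edgeR, adjusted p = 0.690), the widest interval of the 4 members in this comparison, on 28 counts in all.

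**Figure D2:**
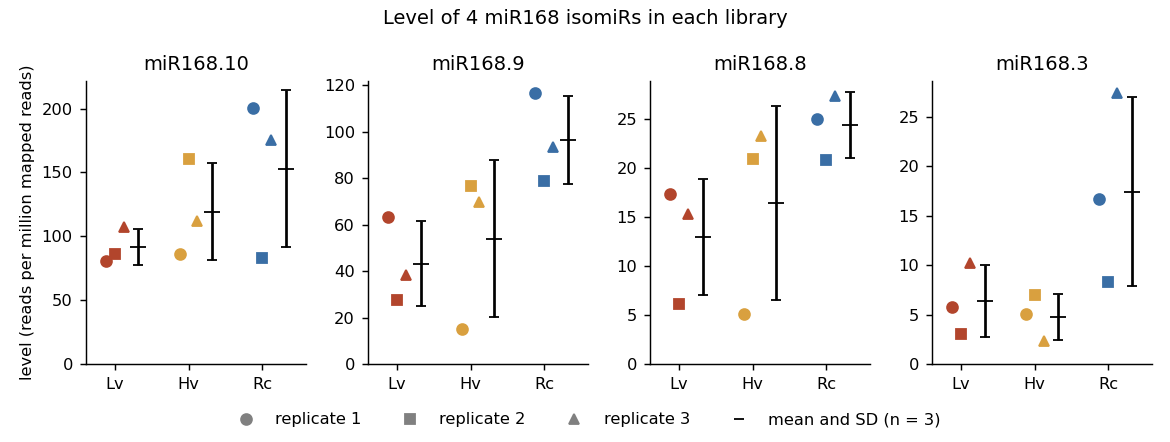
Level in RPM (vertical axis, from 0) of 4 miR168 isomiRs in each library of Lv, Hv and Rc, with symbols for the replicate and a black mark for the mean and SD of 3 libraries. Only in miR168.9 do the stored libraries (at most 76.8 RPM) all lie below the Rc libraries (at least 79.0 RPM), which did not hold in TMM-normalized CPM.

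No member was called in any of the 4 comparisons at an adjusted p under 0.05. With edgeR, 0 of the 99 tested miRNAs, 0%, were called in each of them. At an unadjusted p under 0.05, edgeR gave 9 of the 99 for stored over Rc, 9 for Lv over Rc, 6 for Hv over Rc and 5 for Lv over Hv, and none of these was a member. DESeq2 was run without the minimum of 10 counts, on the 61 known and 81 predicted miRNAs, with all 10 members among them. Of these it called 3, 2, 1 and 0 miRNAs in the 4 comparisons, in the same order, and 0 members. With edgeR on the known miRNAs alone, 0 members were called as well, but the unadjusted p of miR168.3 and miR168.9 for stored over Rc was 0.0169 and 0.0201 (adjusted p = 0.141 for both).

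The log2 fold changes of the 4 tested members had a median of -0.55 for stored over Rc, where the median of all 99 was -0.02. All 4 members were below 0 there, against 51 of the 99. For Lv over Rc the medians were -0.67 for the members and -0.12 for all, and for Hv over Rc they were -0.44 and 0.02, with 4 of 4 members below 0 in both, against 57 of the 99 for Lv over Rc and 48 of the 99 for Hv over Rc. These comparisons share the Rc libraries and 3 of the members share most of their sequence, so that the 4 signs are not separate observations.

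Set side by side, miR168.9 had a log2 fold change of -0.79 (SE 0.58) in Lv over Rc and -0.60 (SE 0.58) in Hv over Rc (edgeR, adjusted p = 0.643 and 0.948). miR168.3 had -1.02 (SE 0.95) and -1.59 (SE 0.99) in the same comparisons (edgeR, adjusted p = 0.711 and 0.884). miR168.10 had -0.35 (SE 0.39) and -0.05 (SE 0.38), and miR168.8 had -0.54 (SE 0.82) and -0.29 (SE 0.81). All 8 intervals included 0.

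Lv and Hv seeds, which had the same age and differed in germination, were compared directly. By the study's methods they also differed in moisture content, which was higher in Lv, so that the 2 cannot be told apart here. The log2 fold change of Lv over Hv was -0.30 for miR168.10 (95% interval -1.17 to 0.58), -0.20 for miR168.9 (-1.53 to 1.14), -0.25 for miR168.8 (-2.13 to 1.63) and 0.57 for miR168.3 (-1.78 to 2.92). The edgeR adjusted p was between 0.986 and 0.987 for all 4. For miR168.10 the interval excluded a difference as large as 4-fold (2 on the log2 scale) in either direction. For miR168.9 it did so over all libraries, but its lower end was -2.11 without Lv replicate 1 and -2.72 with a term for run. For miR168.8 it did not exclude a 4-fold lower level in Lv, and for miR168.3 not a 4-fold higher one.

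**Figure D3:**
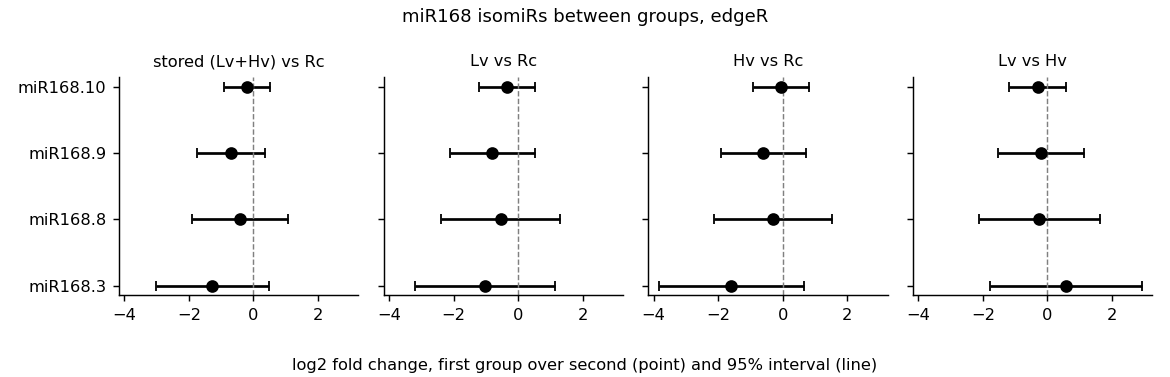
Log2 fold change (points) with its 95% interval (lines) from edgeR on the 99 miRNAs for 4 miR168 isomiRs in 4 comparisons, the first group of each title over the second. Every interval crosses 0, and the intervals widen from miR168.10 (340 counts) to miR168.3 (28 counts).

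As a whole, the family stood at 167.2, 126 and 179 RPM in Lv replicates 1, 2 and 3, at 116, 269 and 207 RPM in Hv replicates 1, 2 and 3, and at 367, 191 and 324 RPM in Rc replicates 1, 2 and 3. Stored and Rc libraries overlapped, since Hv replicates 2 and 3 exceeded Rc replicate 2. The difference of stored from Rc seeds in the mean of log2(RPM + 1) was -0.73, and it was -0.40 in TMM-normalized CPM and -0.45 as a percentage of the counts of known miRNAs, with a spread of 0.46 (SD within groups) on the first scale. As a percentage of known miRNAs, the family made up 2.45% ± 0.735 in Lv, 2.75% ± 0.798 in Hv and 3.55% ± 1.12 in Rc (SD, n = 3 each). No test was run on these sums. Fewer cells that hold the miRNA and less of it per cell cannot be told apart in such samples.

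Ratios within a library do not depend on library size, and the study used miR159, miR166 and miR168 as references for its PCR. miR168.10 was therefore set against miR166.7 and miR159.6, the 21-nt miR166 form and the form with the most counts of miR159. For each 100 counts of miR166.7 there were 7.41, 5.42 and 8.32 counts of miR168.10 in Lv replicates 1, 2 and 3, 8.90, 10.9 and 7.50 in Hv replicates 1, 2 and 3, and 14.5, 6.27 and 9.25 in Rc replicates 1, 2 and 3. All stored libraries but Lv replicate 2 lay within the range of the Rc libraries. The log2 ratio of stored seeds differed from that of Rc seeds by -0.25 (p = 0.429 in an exact two-sided permutation test, adjusted p = 0.643), and that of Lv from Hv seeds by -0.37 (exact permutation test, adjusted p = 0.750).

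For each 100 counts of miR159.6 there were 6.31, 3.65 and 4.78 counts of miR168.10 in Lv replicates 1, 2 and 3, 6.56, 6.81 and 4.32 in Hv replicates 1, 2 and 3, and 8.51, 4.30 and 5.37 in Rc replicates 1, 2 and 3. The log2 ratio differed by -0.14 between stored and Rc seeds (p = 0.655 in an exact two-sided permutation test, adjusted p = 0.655) and by -0.26 between Lv and Hv seeds (exact permutation test, adjusted p = 0.750). The first of these turned to 0.14 without Rc replicate 1, and the difference against miR166.7 turned to 0.056. The smallest p these designs allow is 0.0238 for 6 libraries against 3 and 0.1 for 3 against 3, so that Lv and Hv could not have passed 0.05.

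Sequencing took 2 runs. Run 2 held all Lv libraries and Hv replicate 3, and run 1 held Hv replicates 1 and 2 with Rc replicates 2 and 3. For Rc replicate 1, sequenced in both, the run that the counts come from is not known here. Within run 1, Hv replicates 1 and 2 could be set against Rc replicates 2 and 3, and no such comparison was made in run 2, where no Rc column can be placed. There the log2 ratio of miR168.10 differed by 0.37 against miR166.7 and by 0.48 against miR159.6, higher in Hv, with an exact permutation p of 0.667 and 0.333. With 2 libraries against 2 the smallest p is 0.333, so that neither could have passed 0.05. Both differences are of the other sign than over all libraries.

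The lengths of the 3 forms with the seed CGCUUGG were compared in the same way. For each 100 counts of miR168.10 there were 78.6, 32.1 and 35.7 counts of miR168.9 in Lv replicates 1, 2 and 3, 17.6, 47.8 and 62.5 in Hv replicates 1, 2 and 3, and 58.3, 95.0 and 53.2 in Rc replicates 1, 2 and 3. In 4 of the 6 stored libraries the ratio was below that of every Rc library, and Lv replicate 1 and Hv replicate 3 were within the range of Rc. The mean log2 ratio was -1.24 ± 0.71 in stored seeds (SD, n = 6) and -0.58 ± 0.44 in Rc seeds (SD, n = 3), a difference of -0.66 (p = 0.190 in an exact two-sided permutation test, adjusted p = 0.571). Within run 1 it was -1.20, with an exact permutation p of 0.333, the smallest that 2 libraries against 2 allow (adjusted p = 0.5).

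Between Lv and Hv seeds the same ratio differed by 0.22 (exact permutation test, p = 0.900, adjusted p = 0.900), less than the spread of 0.69 in Lv and 0.87 in Hv (SD, n = 3 each). It turned to -0.17 without Lv replicate 1 and to -0.27 without Hv replicate 1, the libraries with the fewest counts, where miR168.9 had 11 and 3 counts.

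The 19- and 20-nt forms together made up 37.2% ± 11.4 of the 3 forms in Lv, 34.1% ± 13.6 in Hv and 45.6% ± 7.76 in Rc (SD, n = 3 each). The lowest single value, 19.05% in Hv replicate 1, has an exact Clopper-Pearson 95% interval of 5.45% to 41.9% on 21 counts, and the highest, 54.5% in Rc replicate 2, one of 38.8% to 69.6% on 44 counts. The mean length of the 3 forms was between 20.4 and 20.7 nt in Lv, between 20.4 and 20.8 nt in Hv and between 20.3 and 20.5 nt in Rc. Reads shorter than 17 nt had been removed by the authors, so that losses beyond that length could not be seen.

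**Figure D4:**
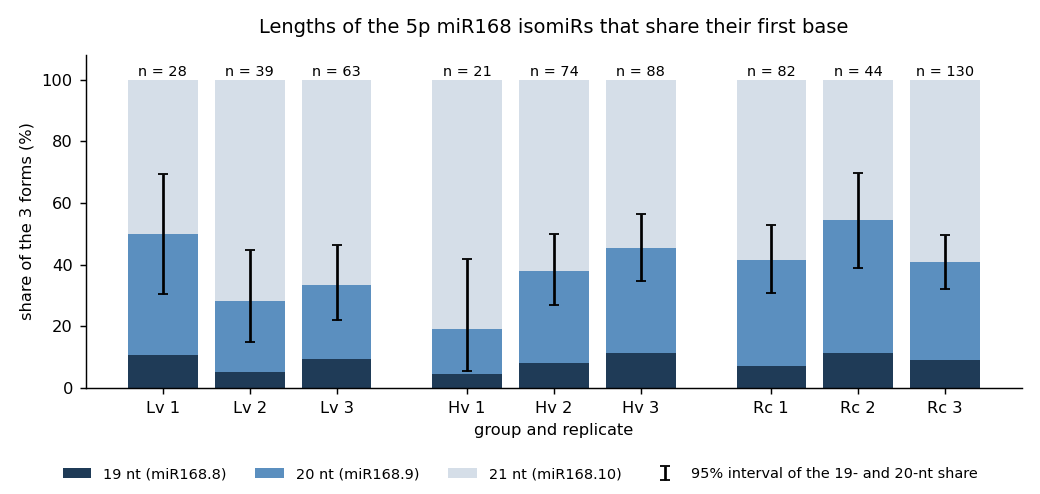
Share of the 19-, 20- and 21-nt 5p forms in each library of Lv, Hv and Rc (stacked bars from 0 to 100%), with the exact 95% interval of the 19- and 20-nt share as a black line and the summed counts above each bar. The 19- and 20-nt share runs from 19.05% in Hv replicate 1 to 54.5% in Rc replicate 2, and the interval of every library overlaps that of every other.

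The 3p arm made up 5.76% of the counts of the members with a sequence in Lv (8 of 139, exact 95% interval 2.52% to 11.03%), 2.14% in Hv (4 of 187, 0.586% to 5.39%) and 6.88% in Rc (19 of 276, 4.20% to 10.5%). The interval of Hv overlaps that of Rc. Counts were summed over the libraries of a group, and Lv replicate 3 gave 6 of the 8 counts of Lv and Rc replicate 3 gave 12 of the 19 of Rc. Per library, the share was 4.86% ± 3.36 in Lv, 2.77% ± 1.71 in Hv and 6.16% ± 2.09 in Rc (SD, n = 3 each). The intervals cover counting error only and leave out the spread between libraries. Reads amplified by PCR are also not independent molecules.

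Whether the 20-nt form was as frequent in other families was asked with miR166 and miR156, both of which have forms of 20 and 21 nt that share their first base. The last bases of these forms are what the ratio compares. Their seeds, in capitals, are not shared with any miR168 member. In A. thaliana, miR166 targets class III homeodomain-leucine zipper transcription factors and miR156 targets SPL transcription factors.
miR166.7 (21 nt): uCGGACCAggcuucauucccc
miR166.6 (20 nt): uCGGACCAggcuucauuccc
miR156.6 (21 nt): uGACAGAAgagagugagcaca
miR156.5 (20 nt): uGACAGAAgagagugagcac
In each of the 9 libraries the ratio of miR168 lay between those of the other families. The log2 ratio of the 20-nt to the 21-nt form of miR168 was higher than that of miR166 by 2.39 ± 0.73 (SD, n = 9), in 9 of 9 libraries (exact sign-flip permutation test, two-sided, adjusted p = 0.00391, the smallest p that 9 libraries allow). It was lower than that of miR156 by a difference of -5.83 ± 0.71, in 9 of 9 libraries (exact permutation test, adjusted p = 0.00391). The difference from miR166 ran from 1.21 to 3.58 over the libraries, and that from miR156 from -6.68 to -4.86. The study itself reported more of the 20-nt form of miR156 than of its canonical form in these seeds. With the order of miR168.10 and miR168.9 also known, the direction against miR156 was known before the test. Both comparisons were chosen with earlier results of these data known, so they say only that the ratios differed beyond the spread between libraries.

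For each 100 counts of the 21-nt form, miR166.6 had 10.6, 10.3 and 10.7 counts in Lv replicates 1, 2 and 3, 8.38, 8.04 and 12.03 in Hv replicates 1, 2 and 3, and 9.70, 7.84 and 7.09 in Rc replicates 1, 2 and 3. These values are closer to each other than those of miR168, which ran from 17.6 to 95.0 on fewer counts. In miR156 the 20-nt form was the main one. The counts of miR156.5 were between 94 and 197 in Lv, between 94 and 346 in Hv and between 188 and 467 in Rc, against 1 to 5, 5 to 11 and 7 to 17 counts of miR156.6 in these groups. In miR168 the 20-nt form had 31.3% and the 19-nt form 8.96% of the counts of the 3 lengths over all libraries, and in miR166 the 20-nt form had 7.76% and the 19-nt miR166.5, named after its values were seen, 9.42%. The order of the miR166 forms was not the same in all groups, with 8.75% for the 20-nt and 7.85% for the 19-nt form in Lv, 8.22% and 10.6% in Hv, and 6.56% and 9.67% in Rc. These shares were not tested.

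**Figure D5:**
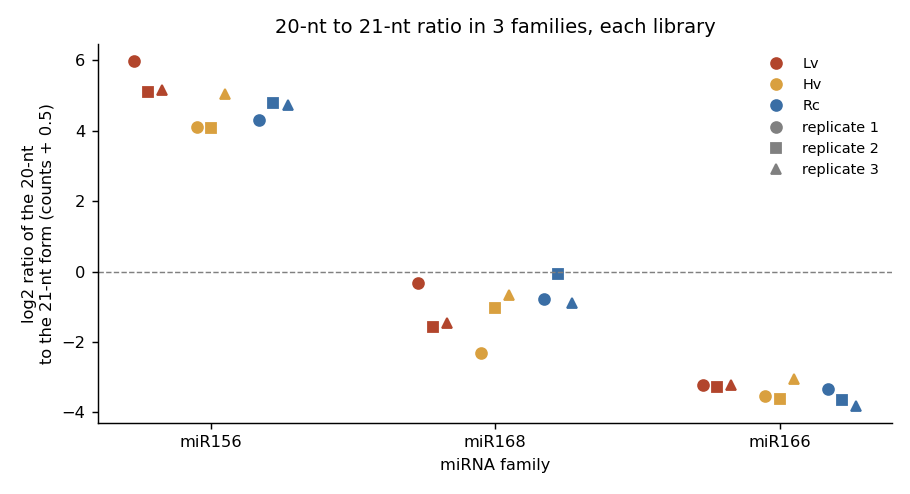
Log2 ratio of the 20-nt to the 21-nt form (vertical axis, counts raised by 0.5) in the miR156, miR168 and miR166 families, with 1 point per library, colours for Lv, Hv and Rc and symbols for the replicate. The miR168 points lie between -2.32 and -0.07, below all miR156 points and above all miR166 points, and the miR168 points of Lv, Hv and Rc overlap.

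The counts of miR168.10 were checked against hvu-new43, its copy among the predicted miRNAs. Both had the same count in 6 of 9 libraries. hvu-new43 had 4 counts fewer in Lv replicate 1, 7 fewer in Lv replicate 3 and 4 fewer in Hv replicate 3, all of them libraries of run 2. In Lv replicate 2, also of run 2, the counts were equal. The log2 fold change of hvu-new43 was -0.32 for stored over Rc (SE 0.35, edgeR, adjusted p = 0.871), within the standard error of that of miR168.10. The 2 entries count the same molecules and are not separate observations.

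Beside this copy, the miRNAs most like miR168.10 over the 9 libraries in log2 CPM were hvu-new1 (Pearson r = 0.73, Spearman rho = 0.45), hvu-new35 (r = 0.71, rho = 0.53) and hvu-new30 (r = 0.64, rho = 0.29). They held 12, 14 and 52 counts in all, so that these values rest on sparse counts of libraries that share their scaling. The other tested members were less like it, with r = 0.52 for miR168.3, 0.34 for miR168.8 and 0.33 for miR168.9, and miR166.7 had r = -0.23.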

How the data were processed

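The authors trimmed the reads, kept those of 17 to 25 nt, mapped them to the barley genome Hv_IBSC_PGSB_v2, matched them to miRBase with miRProf, allowing no mismatch, and used miRCat to predict other miRNAs. The deposited table gives raw counts of 61 known and 81 predicted miRNAs in 9 libraries, without normalization. The deposited normalized scores (9 columns), fold changes (ratios), log2 fold changes and p-values were made by the authors with DESeq2, and none was used. Sequences and coordinates were read from the study's supplementary tables. RPM used the mapped reads that the study states for each library.

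edgeR 4.0.16 in R 4.3.3 was run on the 99 miRNAs with at least 10 counts, with TMM and Benjamini-Hochberg adjustment over all 99; 3 groups shared 1 estimate of the spread, and Lv and Hv were 1 group for stored over Rc. Ratios were tested by exact permutation of libraries, adjusted over the 3 ratios of a comparison or the 2 or 3 ratios compared within libraries. DESeq2 1.42.0, other scalings and filters, the replicate block, run as a covariate and leaving out each library were alternatives. RNAfold 2.7.2 gave the hairpin structure. Named were the members, hvu-new43, the forms used in ratios and the 3 other miRNAs most like miR168.10. The members and lists were chosen with earlier results of these data known. The fits were also run on simulated counts with the same spread for every miRNA. The planted changes were larger than the main estimates of the members, so precision for the members was not assessed that way. Totals of 3966 to 19542 counts per library limit precision.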

Additional observations from a re-analysis of the deposited data

How the results depend on the processing

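No miR168 isomiR was called in any of the 4 comparisons under any alternative run, whichever normalization, filter, tool, covariate or left-out library was used. Over all miRNAs in a fit, at most 3 were called in any setting (DESeq2, stored over Rc), so that 0 members is close to the share of all miRNAs. With known miRNAs only in the fit, however, 4 intervals no longer included 0. For stored over Rc the log2 fold change was -1.55 for miR168.3 (95% interval -2.83 to -0.27, unadjusted p = 0.0169, edgeR adjusted p = 0.141) and -0.75 for miR168.9 (-1.37 to -0.13, unadjusted p = 0.0201, edgeR adjusted p = 0.141). For Lv over Rc it was -0.93 for miR168.9 (-1.72 to -0.13, unadjusted p = 0.0231, edgeR adjusted p = 0.181), and for Hv over Rc -1.99 for miR168.3 (-3.76 to -0.22, unadjusted p = 0.0167, edgeR adjusted p = 0.469). The order of the neighbours and the differences from miR166 and miR156 kept their direction and stayed past the threshold with a pseudocount of 2 and without each library in turn. The labelled replicate numbers do not pair the libraries: 1 of 9 same-numbered pairs correlated above 0.1 (range -0.25 to 0.23). With the replicate block the members called stayed at 0, and the ratio of miR168.9 to miR168.10 had a difference of -0.66 (exact permutation test, adjusted p = 0.667).

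Without each library in turn, the difference of stored from Rc seeds ran from -0.54 to 0.056 for miR168.10 to miR166.7, from -0.35 to 0.14 for miR168.10 to miR159.6 and from -0.84 to -0.40 for miR168.9 to miR168.10, and the difference of Lv from Hv seeds in the last ran from -0.27 to 0.56. In run 1 only, the first 2 were 0.37 and 0.48. A term for run drops Rc replicate 1, which leaves no Rc library in run 2. With it, the log2 fold change of miR168.10 was 0.28 for stored over Rc and 0.28 for Hv over Rc. Both values rest on the Hv and Rc libraries of run 1 and are not separate results. For Lv over Rc it was 0.092 for miR168.10 and 0.40 for miR168.3, reached only through Hv across the runs. All of these were of the other sign than in the main comparison. The cause was not tested.

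Leaving out 1 library turned the sign of 9 fold changes, none of them called. Without each library in turn, miR168.10 ran from -0.43 to 0.078 for stored over Rc and from -0.29 to 0.22 for Hv over Rc, and miR168.8 from -0.71 to 0.048 for Hv over Rc. For Lv over Hv, the range was -0.61 to 0.076 for miR168.9, -0.58 to 0.12 for miR168.8 and -0.10 to 0.98 for miR168.3. Rc replicate 1 turned miR168.10 in 2 of these comparisons. With at most 51 counts each, miR168.8 and miR168.3 are limited by depth in every comparison.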
